A study of Mus musculus with 2 samples.

Results

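The proteasome genes measured here are the 46 genes of 27998 in the count matrix whose symbol starts with Psm, 1 of the letters a to f and a digit. They were read in e13.5 fetal liver of C57BL/6 mice, with the livers of 7 embryos pooled and no genetic change or drug in any cell. Cells carrying Ter119, a surface marker of maturing red cells, were depleted and an equal number of Ter119+ cells was added back, so the shares of the stages were set by the preparation. RNA was read by 10x 3′ sequencing as unique molecular identifiers (UMIs, 1 per captured molecule), and surface proteins of the same cells were read with barcoded antibodies to Ter119, CD71 (the transferrin receptor), cKit, CD44, 5 lineage proteins and a control IgG (CITE-seq). There was 1 cDNA library and 1 antibody library and hence no replicate. Every interval below is a 95% interval for counting error only, and no p-value is given. A gene is said to pass the fold where its levels in 2 stages differ by at least 1.5-fold and these stages hold at least 50 of its UMIs.

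The 26S proteasome degrades proteins that carry ubiquitin chains. Its 20S core is a barrel of stacked rings, with alpha subunits outside and beta subunits inside, and the protease sites sit on beta subunits. The 19S particle caps the barrel. Its base holds a ring of ATPases that unfold the substrate, and its lid holds an enzyme that cuts off ubiquitin. Other caps can take the place of the 19S particle, and immune cells exchange the catalytic subunits for the immunoproteasome set. Red cell precursors are known to remodel their proteome through ubiquitin and the proteasome as they mature.

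By role, 7 members encode the alpha ring, 4 the non-catalytic and 3 the constitutive catalytic subunits of the beta ring, 3 the immunoproteasome subunits, 6 the ATPases and 3 other subunits of the 19S base, 8 the 19S lid, 3 the chaperones that assemble the base, 4 the alternative activators and 1 the regulator PI31. Psma8 and Psmb11 are core subunits known from testis and thymus. Psmc3ip matched by name alone and encodes a meiotic recombination factor, and Psme2b is a copy of Psme2 that can share its reads. Adrm1 and Shfm1 encode 19S subunits that the name pattern misses and are given with the associated genes.

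Of 7863 cells with 58606632 UMIs, 7244 passed the quality limits, 6424 of these were low for the 5 lineage antibodies and 6209 fell into a stage. Ter119-low cells were divided by rising CD71 into S0-low (1510 cells), S0-medium (1054) and S1 (612). Cells with intermediate Ter119 were S2 (1297) if their CD71 was above the lower limit of S1, and otherwise in no stage. Cells with high Ter119 were S3 while CD71 was high (838) and S4/S5 once it was lower (898). Where 6 values follow each other below, they are in this order. The median depth was 6146, 10282, 10152, 6021, 4534 and 3949 UMIs per cell. Globin took 1.05, 1.39, 2.80, 13.1, 37.6 and 64.0 percent of all UMIs, so each level is given both in counts per 1000000 UMIs (CPM) and in counts per 1000000 non-globin UMIs (non-globin CPM), and a ratio of the latter is called per non-globin UMI. The 8 erythroid markers, of which Hbb-bt is a globin gene, were all detected in every stage. They summed to 3258 CPM in S0-low and 144321 in S4/S5. The part of Hbb-bt in these sums was not separated, so the sum alone does not show how many cells were erythroid. S0-low was mixed. In it 209 cells (13.8%) held more than 30 UMIs per 10000 of hepatocyte, myeloid, macrophage or megakaryocyte markers and are called the marked cells below. A 2-class k-means on each of these 4 lists took in 662 cells of S0-low (43.8%), called marker-rich. Its border was as low as 1.16 UMIs per 10000 for megakaryocyte markers. In S4/S5 41 cells and in S3 14 cells had embryonic chains in more than 50% of their globin UMIs. Both units give relative levels, which cannot tell less RNA of these genes per cell from more of other RNA.

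The share of the summed proteasome genes in non-globin RNA was a little higher in each stage from S0-low to S2 and lower afterwards. In CPM their summed level was 9649, 10105, 10134, 8869, 5410.2 and 2783. In non-globin CPM it was 9769, 10329.7, 10553, 10704, 9196 and 7898. A cell held a mean of 78.7, 111, 109, 69.8, 33.0 and 13.0 UMIs of these genes. In CPM the decline after S1 was therefore steep, whereas most of it was absent when globin was left out of the denominator.

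For S1 over S0-low the ratio of the summed level was 1.05 (1.04 to 1.06) in CPM and 1.08 (1.07 to 1.09) per non-globin UMI. For S3 over S1 it was 0.534 (0.526 to 0.542) in CPM and 0.871 (0.857 to 0.887) per non-globin UMI. For S4/S5 over S3 it was 0.514 (0.502 to 0.527) and 0.859 (0.837 to 0.881). The sum thus passed the fold downwards in CPM at both late steps and at no step per non-globin UMI. Counted per cell with no denominator, the 3 ratios were 1.39, 0.302 and 0.394.

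The spread among the cells of a stage was wider than the steps per non-globin UMI. The 25th and 75th percentiles of the cells were 7855 and 11490 non-globin CPM in S0-low, 9022 and 12110.3 in S1, 7228 and 10862 in S3 and 5967 and 9673 in S4/S5. These ranges include the counting error of each cell.

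Of the 45 members with enough UMIs for S1 over S0-low, 5 passed the fold upwards and 6 downwards in both units. Among all 9577 genes tested, 8.10% passed it upwards and 32.3% downwards in CPM, and 8.78% and 31.1% per non-globin UMI. The median ratio of the members was 1.10 in CPM and 1.13 per non-globin UMI, beside 0.842 and 0.862 over all genes tested. The 5 higher members were Psmc6, Psmc2, Psmd9, Psmd10 and Psmf1, and the 6 lower ones were Psmb8, Psmb9, Psmb10, Psme1, Psme2 and Psme2b. The count upwards was near the share over all genes. The higher members held 2 of the 6 ATPases and 2 of the 3 chaperones of the 19S base, and the lower ones all 3 immunoproteasome genes. Other gates changed some of these calls, as given below.

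For S3 over S1, 43 members could be compared. In CPM 0 passed the fold upwards and 30 downwards, beside 6.76% and 76.1% of 7593 genes. Per non-globin UMI 2 passed it upwards (Psme3 and Psmc5) and 15 downwards, beside 15.5% and 49.8% of all genes. The median ratio was 0.577 in CPM and 0.915 per non-globin UMI for the members, and 0.416 and 0.669 for all genes tested. The members thus lost less of their level than the median gene at this step.

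For S4/S5 over S3, 42 members could be compared. In CPM 1 passed upwards (Psmb10) and 39 downwards, beside 1.15% and 72.4% of 5556 genes, with medians of 0.491 for the members and 0.532 for all genes. Per non-globin UMI 1 passed upwards (Psmb10) and 7 downwards, beside 10.5% and 22.6%, with medians of 0.813 and 0.883. At this last step the median member lay a little below the median gene.

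**Figure D1:**
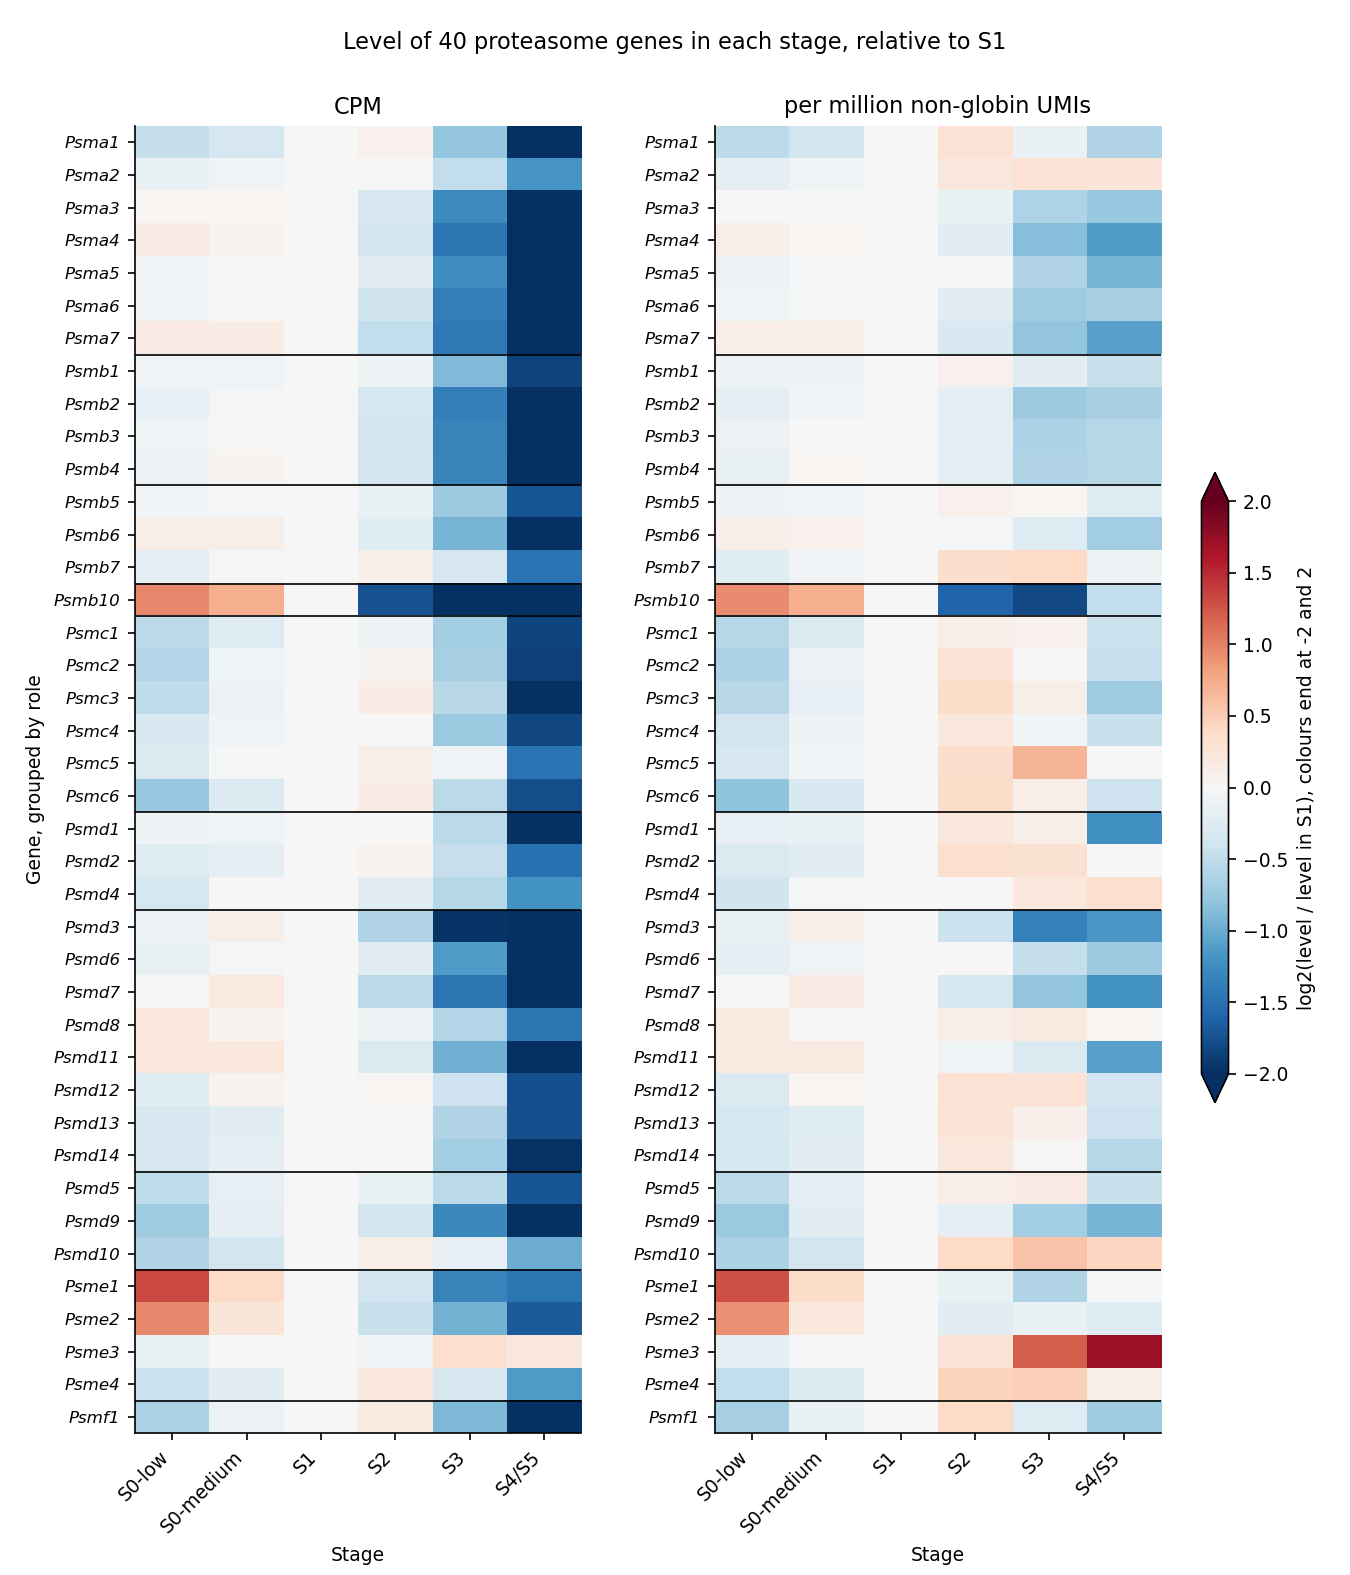
Levels of 40 proteasome genes (rows, in blocks by role) in the 6 stages (columns), as log2 of the level over the level in S1, in CPM on the left and in non-globin CPM on the right. The last 2 columns are blue in CPM for nearly all genes, and per non-globin UMI most of the alpha ring and of the non-catalytic beta subunits remain blue in S3 while the ATPases other than Psmc5 are near white and Psme3 is red. Psma8, Psmb8, Psmb9, Psmb11, Psmc3ip and Psme2b are not drawn.

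The alpha ring, which gates the entry to the barrel, split within itself after S1. Its summed level was 3180.0, 3253, 3315, 3217, 2478 and 2147 non-globin CPM. From S1 to S3, 5 of its 7 genes (Psma3, Psma4, Psma5, Psma6 and Psma7) passed the fold downwards per non-globin UMI, with ratios from 0.557 to 0.662, beside 49.8% of all genes. The median ratio of the ring was 0.655, close to that of all genes tested (0.669). Psma4 was the lowest of them, at 416, 392, 383, 331, 213 and 177 non-globin CPM, with a ratio of 0.557 (0.502 to 0.617) in S3 over S1. Psma2 went the other way, at 444, 475, 505, 592, 619 and 601, with a ratio of 1.23 (1.14 to 1.32) that did not pass the fold. The intervals of these 2 subunits of the same ring lay far apart. In CPM 6 of the 7 genes passed the fold downwards, beside 76.1% of all genes, with Psma4 at 0.362 and Psma2 at 0.708. The remaining gene, Psma1, was at 0.915 (0.845 to 0.990) per non-globin UMI.

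Per non-globin UMI the 4 non-catalytic beta subunits had a course like that of the alpha ring up to S3 but no further decline after it. Their sum was 1690.3, 1814, 1868, 1751, 1292 and 1268 non-globin CPM. In S3 over S1, Psmb2, Psmb3 and Psmb4 passed the fold downwards, at 0.604 (0.559 to 0.651), 0.648 (0.587 to 0.714) and 0.656 (0.580 to 0.741), and Psmb1 did not, at 0.851 (0.787 to 0.919). Of all genes 49.8% passed it downwards at this step. From S3 to S4/S5 all 4 lay between 0.862 and 1.06 per non-globin UMI. In CPM the same 4 ratios lay between 0.514 and 0.589, all past the fold, beside 72.4% of all genes.

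The summed level of the 3 constitutive catalytic subunits was nearly the same in S3 as in S1 per non-globin UMI, with a ratio of 1.04 (0.984 to 1.09), but the 3 genes differed. Psmb5, the chymotrypsin-like site, stood at 287, 296, 306, 325, 314 and 256 non-globin CPM. Psmb6, the caspase-like site, stood at 448, 445, 417, 405, 351 and 257. Psmb7, the trypsin-like site, stood at 256, 289, 302, 385, 400.0 and 283. In S3 over S1 the ratios were 1.02 (0.928 to 1.13) for Psmb5, 0.840 (0.769 to 0.916) for Psmb6 and 1.32 (1.21 to 1.45) for Psmb7, 3 intervals with no overlap, and none passed the fold. In CPM the same ratios were 0.607, 0.524 and 0.788, in the same order. Psmb5 and Psmb6 passed the fold downwards in that unit, beside 76.1% of all genes. In S4/S5 over S3 none of the 3 passed it per non-globin UMI, at 0.816, 0.733 and 0.707.

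The letters TGACNNNGC, the core of the antioxidant response element bound by the Nfe2l1 and Nfe2l2 factors, and CCAAT, the box bound by NF-Y, were searched on both strands of RefSeq promoter windows (250 bases before to 50 after each start, build GRCm38.p6). Windows were found for 39 members. TGACNNNGC was in those of 6 of the 39 (15.4%: Psmb5, Psmb6, Psmc6, Psmd9, Psmd12 and Psme4), beside 14.0% of all 27025 genes with a window. CCAAT was in those of 15 members (38.5%), beside 41.1% of all genes. Both shares were near those of all promoters. No window was found for Psma8, Psmb1, Psmb2, Psmb7, Psmc3, Psmd3 and Psmd7. The 4 windows printed in this text hold 1 match each. The window of Psmb5, printed as that of a catalytic subunit with TGACNNNGC, is at chr14:54617946-54618245, minus strand, with the match in capitals, its first base 47 bases before the start.
Psmb5: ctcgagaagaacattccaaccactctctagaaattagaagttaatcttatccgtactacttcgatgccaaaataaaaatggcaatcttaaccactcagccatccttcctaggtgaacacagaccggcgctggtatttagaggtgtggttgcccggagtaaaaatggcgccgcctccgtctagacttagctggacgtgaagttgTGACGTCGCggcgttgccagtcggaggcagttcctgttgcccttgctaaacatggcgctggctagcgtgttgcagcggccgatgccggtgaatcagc

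The immunoproteasome genes encode the subunits that replace the 3 constitutive catalytic ones, Psmb8 in place of Psmb5, Psmb9 of Psmb6 and Psmb10 of Psmb7. Among the stages Psmb8 and Psmb9 had most of their UMIs in S0-low. Psmb8 stood at 69.2, 2.41, 2.27, 3.18, 4.58 and 10.1 non-globin CPM, on 658, 25, 11, 17, 15 and 17 UMIs. Psmb9 stood at 15.7, 0.358, 0.650, 2.02, 1.86 and 3.78, on 156, 5, 3, 10, 5 and 7 UMIs. The ratio of S1 over S0-low was 0.0328 (0.0154 to 0.0615) for Psmb8 and 0.0414 (0.00841 to 0.124) for Psmb9, the lowest of all members. Their levels after S0-low rest on few UMIs, too few to compare S3 with S1.

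Psmb10 took another course. It stood at 167, 143, 87.0, 28.7, 24.9 and 61.8 non-globin CPM. Its ratio was 0.522 (0.470 to 0.579) for S1 over S0-low, 0.286 (0.206 to 0.389) for S3 over S1 and 2.48 (1.67 to 3.72) for S4/S5 over S3, and it passed the fold at all 3 steps in both units. In CPM the last ratio was only 1.51 (1.07 to 2.14), and it was short of the fold at 1.30 with antibody counts on a log10 scale, 1.28 without marker-rich cells by k-means and 1.14 with counts pooled over the cells of a stage. In UMIs per cell it was 0.914. At the last step the markers of most other cells were higher too in non-globin CPM. In non-globin CPM, the 8 myeloid markers summed to 723, 78.7, 82.6, 144, 304 and 661 and the 8 hepatocyte markers to 6581, 439, 579.6, 559, 1313 and 2422, with every marker of both lists detected in each stage. From S0-medium to S3 the myeloid sum was higher in each stage than in the one before, and Psmb10 was lower. What either course says of S4/S5 was not tested. From S3 to S4/S5 in CPM the myeloid sum went from 143 to 205 and the hepatocyte sum from 697 to 712. In non-globin CPM the early progenitor markers listed below went from 101 to 232 at this step. The macrophage sum went from 35.9 to 69.8 and the megakaryocyte sum from 170 to 260. The endothelial sum went from 16.6 to 34.0 and the stromal sum from 5.07 to 9.78. Of these lists only the lymphoid sum was lower, from 15.1 to 13.7 non-globin CPM. In CPM the early progenitor sum went from 51.5 to 77.5 and the megakaryocyte sum from 86.4 to 77.8. Psmb10 had 94 UMIs in S4/S5 and 96 in S3. The part of other cells or of free RNA in its late level was not tested.

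As a share of the paired genes, which may be captured with unequal efficiency, Psmb10 made up 37.8%, 33.7%, 24.4%, 10.1%, 8.07% and 17.9% of the UMIs of Psmb10 and Psmb7. Psmb8 made up 15.4% (14.3 to 16.5) of Psmb8 and Psmb5 in S0-low and 0.554% (0.277 to 0.988) in S1. The same share was 35.3% (32.5 to 38.1) in the 318 cells over the limit for myeloid markers and 41.5% (35.0 to 48.2) in the 81 over that for macrophage markers, most of which lie outside the stages. In the 204 cells over the limit for hepatocyte markers, of which 126 fell into a stage, it was 1.09% (0.525 to 2.0). The share in S1 was within the interval of that in hepatocyte-marker cells, and that in S0-low was far above it.

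Taking out the marked cells, by a limit set after seeing the data, left the level of Psmb8 in S0-low nearly as large. Among the 1301 cells of S0-low with no marker list over the limit it stood at 63.9 (57.9 to 72.1) non-globin CPM. Among the 843 of these with high cKit antibody it stood at 70.2 (62.7 to 78.6). The other marker-rich cells were kept for these 2 levels, which hence do not give the part of those cells. By k-means 295 cells of S0-low were rich in myeloid markers, beside 95 over the limit. Psmb8 was highest in the cells with the least CD71. When the Ter119-low cells were ordered by CD71 into 10 bins of 317 or 318 cells, Psmb8 stood at 189 (167 to 217) in the first, 114 (100.1 to 138) in the second, 21.8 (16.6 to 40.4) in the third and at 3.11 or less in the 7 bins after it. Without the marked cells the first 3 bins stood at 196, 111 and 18.4. The early progenitor markers (Kit, Gata2, Cd34, Myb, Plac8 and Cd48) summed to 2045, 1339, 379 and 222 non-globin CPM in the first 4 bins, and the myeloid markers to 1808, 1223, 277 and 74.0. Both lists thus had the order of Psmb8. In these 4 bins the lymphoid sum went down too, at 88.7, 37.0, 7.31 and 2.01. So did the endothelial sum, from 44.0 to 8.83, and the stromal sum, from 97.7 to 2.56. The hepatocyte, macrophage and megakaryocyte sums had another order. In the first bin the myeloid sum was still 858 without the marked cells, and the part of such cells in the level of Psmb8 there was not tested.

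Psmb10 had another order along the same bins. It stood at 101 (84.3 to 123) in the first, then at 148, 188, 209 (189 to 233) and 194, and went down to 71.9 (62.3 to 87.5) in the tenth. Psmb8 had hence reached its floor by the bin where Psmb10 was highest. The step from S0-low to S1 for Psmb10 depends on where S0-low ends. With antibody counts on a log10 scale, which left 609 cells in S0-low, its ratio was 1.21, whereas that of Psmb8 was 0.0140.

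Psmb8 and Psmb9 are neighbours on chromosome 17 (GRCm38.p6). Psmb9 spans 34182030 to 34187330 and Psmb8 spans 34198195 to 34201454, with the peptide transporter gene Tap1 between them from 34187556 to 34197225. The window of Psmb9, printed because it also covers the start of Tap1, is at chr17:34187281-34187580, minus strand. The capitals mark CCAAT, read here on the opposite strand, 8 bases before the start of Psmb9.
Psmb9: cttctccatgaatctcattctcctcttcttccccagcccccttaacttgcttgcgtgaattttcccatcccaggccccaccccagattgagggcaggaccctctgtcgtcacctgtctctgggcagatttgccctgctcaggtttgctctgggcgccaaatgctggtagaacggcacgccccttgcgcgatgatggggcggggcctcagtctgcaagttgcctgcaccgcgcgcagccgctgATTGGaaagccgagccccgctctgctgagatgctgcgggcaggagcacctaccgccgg

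Of the 10 other genes of antigen presentation in the list, 7 could be compared in S1 over S0-low. Per non-globin UMI 0 passed the fold upwards and 3 downwards, beside 8.78% and 31.1% of all genes, with a median of 0.667, and in CPM 0 and 4, with a median of 0.658. Over all genes the shares in CPM were 8.10% and 32.3%. With only 7 genes compared, whether these counts differ from the shares over all genes was not tested. B2m, the light chain of MHC class I, went from 394 to 203 non-globin CPM, a ratio of 0.516 (0.479 to 0.555). H2-K1, a heavy chain, was at 0.509 (0.415 to 0.621) and Tap2, a peptide transporter, at 0.359 (0.219 to 0.570). Tap1 was below the 50 UMIs set for a comparison. In S3 over S1, 1 of 5 passed upwards and 4 downwards per non-globin UMI, with a median of 0.548, and 0 and 4 in CPM, with a median of 0.312. Over all genes the shares were 15.5% and 49.8%, and 6.76% and 76.1% in CPM. In S4/S5 over S3 the direction turned with the unit. Per non-globin UMI 2 of 4 passed upwards and 1 downwards, with a median of 1.48, and in CPM 0 and 1, with a median of 0.782. Over all genes the shares were 10.5% and 22.6%, and 1.15% and 72.4% in CPM.

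Among the roles with several genes, the 6 ATPases of the 19S base, which unfold substrates and thread them into the core, gained most up to S2. Their sum in non-globin CPM was 744, 981, 1117, 1368, 1207 and 826. The ratio of S1 over S0-low was 1.501 (1.447 to 1.557), beside 1.56 (1.46 to 1.66) for the summed base chaperones. Each of the 6 ATPase genes had an interval above 1. Psmc6 was the highest, at 178, 252, 312, 404, 341 and 235 non-globin CPM and a ratio of 1.75 (1.62 to 1.88). Psmc2 followed, at 149.7, 216, 233, 280.0, 232 and 169 and a ratio of 1.56 (1.43 to 1.69). None of the other 4 passed the fold, the nearest being Psmc1 at 1.48 (1.33 to 1.65). With S0-low held to cells with high cKit the ratio of Psmc6 was 1.84, and with the gates on a log10 scale it was 1.45, short of the fold.

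From S1 to S3 the ATPases had nearly the same level per non-globin UMI, with ratios from 0.962 to 1.09 for 5 of them. Psmc5 was the exception, at 1.60 (1.36 to 1.89), from 78.7 to 126 non-globin CPM. In CPM the 6 ratios lay between 0.601 and 0.954, and with ribosomal and mitochondrial genes also left out of the denominator Psmc5 was at 1.43, short of the fold. From S3 to S4/S5 all 6 were lower in both units. Per non-globin UMI they lay between 0.565 and 0.767, of which Psmc3 at 0.565 (0.456 to 0.695) and Psmc5 at 0.630 (0.485 to 0.810) passed the fold. Of all genes 22.6% passed it downwards at this step.

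The window of Psmc6, printed as that of the subunit with the highest ratio in S1 over S0-low, is at chr14:45329574-45329873, plus strand. The capitals mark TGACNNNGC, read on the opposite strand, with its first base 227 bases before the start.
Psmc6: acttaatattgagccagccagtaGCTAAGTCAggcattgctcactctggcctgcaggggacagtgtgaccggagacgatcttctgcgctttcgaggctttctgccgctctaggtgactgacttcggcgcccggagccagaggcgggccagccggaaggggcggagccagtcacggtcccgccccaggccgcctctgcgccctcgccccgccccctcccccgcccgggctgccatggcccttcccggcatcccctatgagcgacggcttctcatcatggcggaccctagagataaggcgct

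The 3 base subunits without ATPase activity differed from each other at the end. Psmd4, a receptor for ubiquitin chains, stood at 214, 280.0, 284, 287, 329.7 and 356 non-globin CPM and had its highest level in S4/S5 in that unit, with a ratio to S3 of 1.08 (0.944 to 1.23), an interval that holds 1. In CPM it stood at 212, 269, 272, 235, 184 and 119, and its ratio of 0.646 (0.571 to 0.730) in S4/S5 over S3 passed the fold downwards, as did those of Psmd1 and Psmd2. Of all genes 72.4% did so. Psmd2, a scaffold subunit, stood at 114, 118, 138, 173, 170.0 and 137. Psmd1, the other scaffold subunit, stood at 100.5, 103, 113, 132, 123 and 48.3, and its ratio of 0.392 (0.291 to 0.521) in S4/S5 over S3 was the lowest of all members compared at that step. In CPM it was lowest too, at 0.268 (0.204 to 0.348), from 73.3 to 19.7 CPM. Psmd2 was at 0.805 (0.657 to 0.983) per non-globin UMI, so the intervals of both scaffold genes did not meet.

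The 8 lid genes gave a mixed picture. Their sum was 1561, 1689, 1643, 1611, 1355 and 1002 non-globin CPM. In S3 over S1 Psmd3 and Psmd7 passed the fold downwards per non-globin UMI, 2 of 8 beside 49.8% of all genes. In CPM 7 of the 8 passed it downwards, beside 76.1%. Psmd3, a structural subunit, stood at 136, 161, 150.5, 112, 59.1 and 67.3, and its ratio of 0.393 (0.324 to 0.473) was the lowest among the members of the 19S particle. Psmd7, the partner of the deubiquitinase, stood at 414, 467, 417, 326, 239.9 and 181, with a ratio of 0.576 (0.520 to 0.636). Psmd14, the deubiquitinase of the lid, stood at 157, 174, 201, 234, 204 and 136, with a ratio of 1.01 (0.902 to 1.14). The intervals of these partners did not meet.

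At the last step 3 other lid genes passed the fold downwards per non-globin UMI, beside 22.6% of all genes, and in CPM all 8 did, beside 72.4%. Psmd12, a structural subunit, stood at 135, 169.5, 165, 201, 202 and 127, and Psmd11, another, at 266, 264, 234, 221, 191 and 109.5 non-globin CPM. In S4/S5 over S3 they were at 0.627 (0.516 to 0.759) and 0.574 (0.469 to 0.699), and Psmd14 was at 0.664 (0.547 to 0.803). Psmd3 was at 1.14 (0.837 to 1.54) per non-globin UMI and 0.583 in CPM at this step. The remaining Psmd6, Psmd8 and Psmd13 lay between 0.721 and 1.13 in S3 over S1 and between 0.699 and 0.905 in S4/S5 over S3 per non-globin UMI.

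The chaperones that put the base together were higher in S1 than in S0-low, Psmd9 at 1.67 (1.52 to 1.84) and Psmd10 at 1.54 (1.35 to 1.77) past the fold and Psmd5 at 1.44 (1.29 to 1.61) short of it. They then parted. Psmd9 stood at 99.2, 144, 166, 147, 104 and 87.0 non-globin CPM and passed the fold downwards in S3 over S1, at 0.626 (0.539 to 0.725). Psmd10, known as gankyrin, stood at 61.2, 72.0, 94.4, 124, 139.7 and 128 and was at 1.48 (1.26 to 1.73) at that step. Psmd5 stood at 90.7, 116, 131, 142, 147 and 96.3 and passed the fold downwards in S4/S5 over S3, at 0.654 (0.525 to 0.810). In CPM all 3 passed the fold downwards at the last step, beside 72.4% of all genes. In S3 over S1 Psmd10 was at 0.894 in CPM. With the gates on a log10 scale the ratio of Psmd10 in S1 over S0-low was 1.16, short of the fold.

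**Figure D2:**
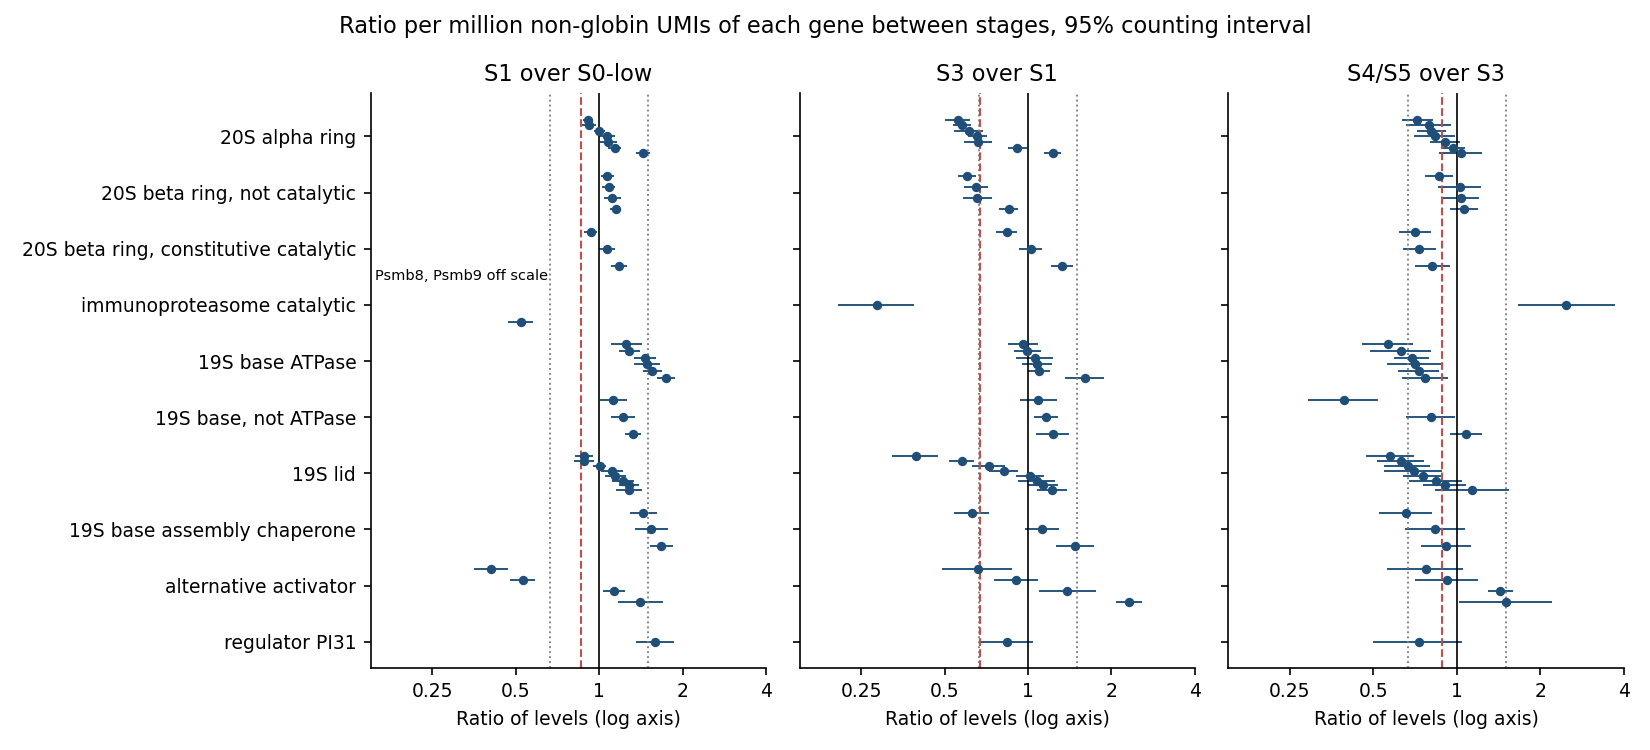
Ratio of the level in non-globin CPM between stages (log axis) for each gene with at least 50 UMIs, grouped by role, with bars for the 95% counting interval, a solid line at 1, dotted lines at the 1.5-fold limits and a red dashed line at the median of all genes tested. Psmb8 and Psmb9 in S1 over S0-low lie left of the scale. The ATPases and base chaperones lie right of 1 in S1 over S0-low, most alpha ring genes lie near the lower limit in S3 over S1, and Psme3 is the rightmost gene there at 2.31.

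The 4 activator genes did not move together. Psme1 and Psme2 encode the subunits of PA28αβ, the cap that accompanies the immunoproteasome. Psme1 stood at 111, 58.6, 45.4, 41.0, 29.9 and 44.8 non-globin CPM, and Psme2 at 197, 121, 104, 90.2, 94.6 and 87.0. In S1 over S0-low they passed the fold downwards at 0.408 (0.353 to 0.470) and 0.529 (0.478 to 0.585). In S3 over S1 Psme1 did so again, at 0.658 (0.490 to 0.873), and in S4/S5 over S3 it was just short of the fold upwards, at 1.499 (1.017 to 2.201) on 100 and 66 UMIs. In CPM the last ratio was 0.913 (0.638 to 1.30), on the other side of 1. The myeloid markers went from 304 to 661 non-globin CPM at the same step, and their part in the level of Psme1 was not tested. Both had their highest level where Psmb8 had, in the first CD71 bin, at 171 and 265 non-globin CPM, and cells over the limit for myeloid markers held 184 and 253. Without the marked cells S0-low still held 103 of Psme1 and 187 of Psme2. Psme2b, whose reads cannot be told from those of Psme2 with certainty, was at 0.477 (0.381 to 0.592) in S1 over S0-low.

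Psme3 encodes PA28γ, a nuclear cap that does not need ubiquitin. Its level per non-globin UMI was higher in each stage than in the one before. Among the members only Psmd4 had the same order, but the intervals of its neighbouring stages from S0-medium to S2 overlap and in CPM it went down from S1 on. Psme3 stood at 172 (163 to 183) in S0-low, 189 (179 to 202) in S0-medium, 195 (181 to 211) in S1, 234 (219 to 249.8) in S2, 450.2 (418 to 487) in S3 and 647 (599 to 699.8) in S4/S5. The intervals of the first 3 stages overlap between neighbours and those of the later ones do not. The ratio was 2.31 (2.08 to 2.57) for S3 over S1, the highest of the members, and 1.44 (1.29 to 1.60) for S4/S5 over S3. In CPM it stood at 166, 183, 184, 178, 232 and 216, with ratios of 1.26 (1.14 to 1.39) and 0.929 (0.840 to 1.03), short of the fold. In UMIs per cell the first ratio was 0.647. Fewer UMIs of Psme3 were thus counted per cell in S3, where the depth was lower, but they made up more of the non-globin UMIs. Without the cells rich in embryonic globin the level in S4/S5 was 664 (614 to 719).

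The window of Psme3, printed because its ratio was the highest in S3 over S1, is at chr11:101315963-101316262, plus strand. The capitals mark CCAAT, read on the opposite strand, 14 bases before the start.
Psme3: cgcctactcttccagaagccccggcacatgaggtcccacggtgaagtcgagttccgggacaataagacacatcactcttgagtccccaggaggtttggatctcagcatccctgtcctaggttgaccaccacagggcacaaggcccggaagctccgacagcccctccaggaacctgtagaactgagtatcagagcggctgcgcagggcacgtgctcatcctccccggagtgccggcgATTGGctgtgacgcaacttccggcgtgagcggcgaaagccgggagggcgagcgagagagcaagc

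Psme4 encodes PA200, a nuclear cap linked to chromatin. It stood at 35.7, 41.7, 50.2, 68.7, 69.6 and 53.8 non-globin CPM, with ratios of 1.41 (1.17 to 1.69), 1.39 (1.09 to 1.75) and 0.772 (0.560 to 1.06) at the 3 steps, none past the fold, whereas in CPM the last was 0.567, past it downwards. Among the UMIs of all members the 4 activators together took 5.03%, 3.90%, 3.56%, 3.60%, 5.52% and 9.31%, the 20S core took 60.2%, 59.2%, 59.0%, 57.8%, 54.6% and 54.0% and the 19S particle 28.4%, 30.6%, 31.2%, 32.9%, 34.0% and 30.6%.

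Psmf1 encodes PI31, a protein that binds the 20S core and was first described as its inhibitor. It stood at 41.1, 59.6, 65.3, 85.3, 54.9 and 39.9 non-globin CPM, highest in S2. The first step passed the fold, at 1.59 (1.36 to 1.85). The later ratios were 0.841 (0.675 to 1.04) and 0.728 (0.498 to 1.04), and 0.539 and 0.396 in CPM, past the fold downwards. Fbxo7, whose protein binds PI31, was at 2.20 (1.85 to 2.63) in S1 over S0-low and 2.25 (1.91 to 2.66) in S3 over S1 per non-globin UMI and at 1.32 in CPM at the latter step, so the partners had unlike courses after S1.

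**Figure D3:**
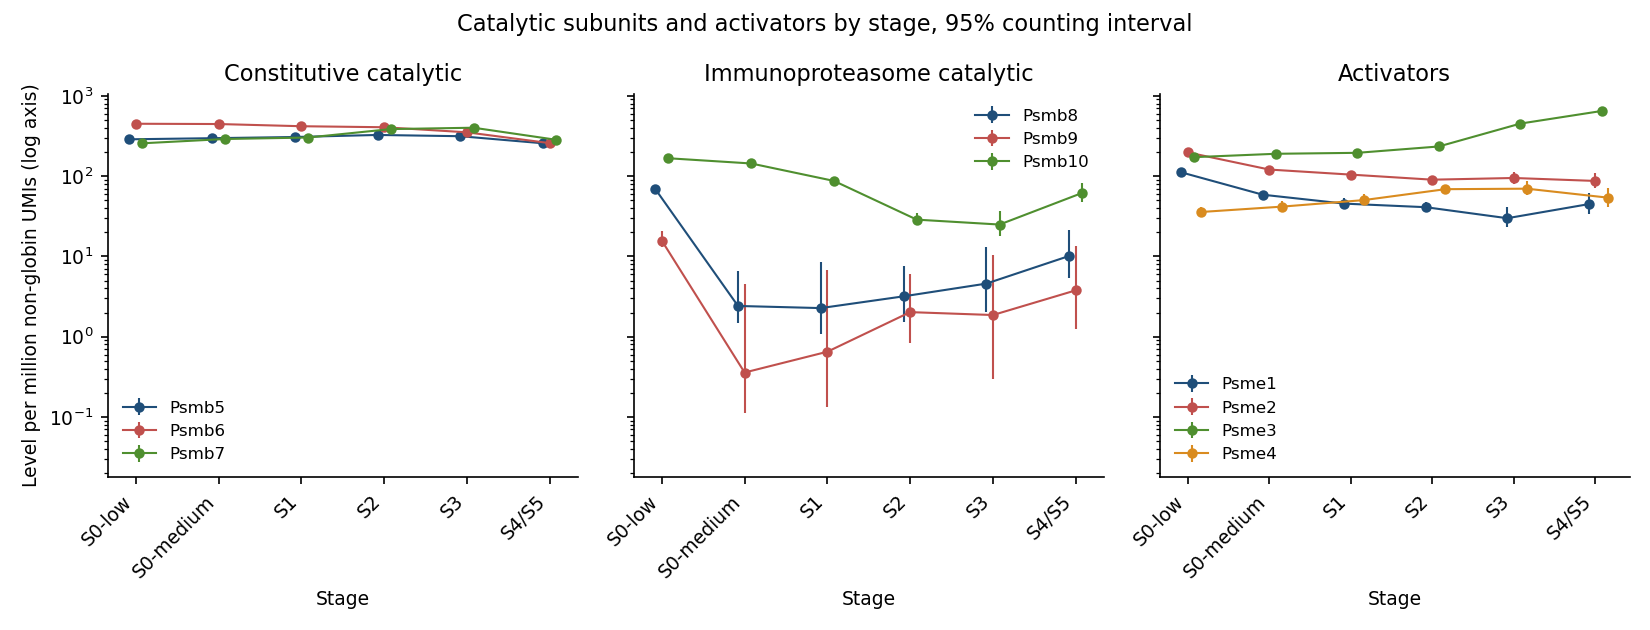
Levels in non-globin CPM (log axis) of the constitutive catalytic genes, the immunoproteasome genes and the activators in the 6 stages, with bars for the 95% counting interval. Psmb8 and Psmb9 drop from 69.2 and 15.7 in S0-low to 2.41 and 0.358 in S0-medium, Psmb10 is lowest in S3 at 24.9, and Psme3 reaches 647 in S4/S5.

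The tissue-restricted core genes were rare. Psma8 had 103, 106, 55, 57, 7 and 3 UMIs in the stages, and Psmb11 had 3, 3, 2, 4, 0 and 0. For Psmb11 in S3 and S4/S5 the upper interval bounds of 8.24 and 9.36 non-globin CPM are what a count of 0 allows. Psma8 passed the fold downwards in S3 over S1, at 0.257 (0.0527 to 0.788), on 7 UMIs in S3. Psmc3ip stood at 60.8, 76.5, 78.6, 59.1, 31.2 and 32.8 and was at 0.397 (0.300 to 0.517).

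In 25 bins of cells ordered by antibody counts the 20S core and the 19S particle had unlike courses. The 19S particle went from 2327 (2247 to 2413) non-globin CPM in bin 1 to 3335 in bin 10 and 3603 (3506 to 3707) in bin 12. The core went from 5652 (5527 to 5783) to 6353 and 6343 in the same bins, a smaller relative change. The core was lower from bin 13 on, at 5255 in bin 15, while the 19S particle was still at 3611 in bin 16. In bin 25 they stood at 4072 and 2270.1. Psmc6 went from 163 in bin 1 to 426 in bin 12 and 216 in bin 25. Psme3 lay between 119 and 209 in the first 11 bins, at 324 in bin 15, 452 in bin 17 and 686 (580.3 to 815) in bin 21.

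**Figure D4:**
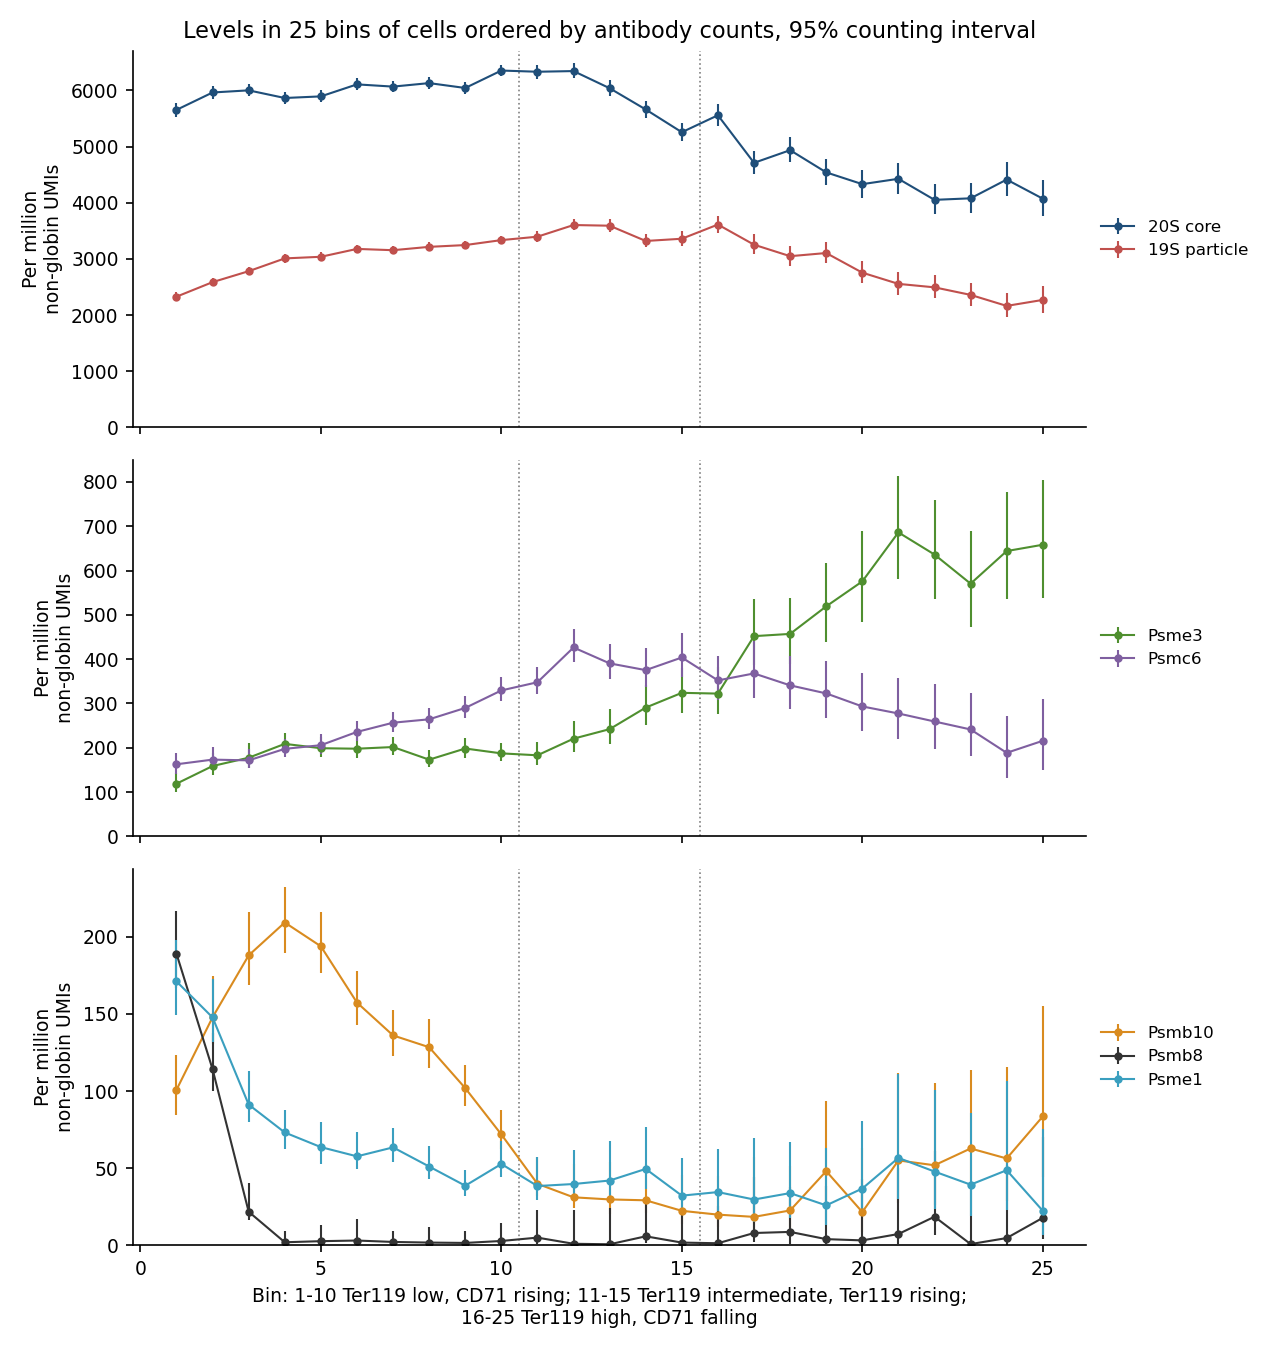
Levels in non-globin CPM in 25 bins of cells ordered by antibody counts, with bars for the 95% counting interval: Ter119-low cells by rising CD71 (bins 1 to 10), Ter119-intermediate cells by rising Ter119 (bins 11 to 15) and Ter119-high cells by falling CD71 (bins 16 to 25). Bins 11 to 15 include the Ter119-intermediate cells whose CD71 was too low for S2. The 19S particle goes from 2327 in bin 1 to 3603 in bin 12 and 2270.1 in bin 25, Psme3 goes from 119 to 658, and Psmb8 goes from 189 in bin 1 to 1.99 in bin 4, the bin where Psmb10 is highest.

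Of the 25 proteasome-associated genes listed and found in the matrix, 2 passed the fold upwards and 4 downwards in S1 over S0-low per non-globin UMI, with a median of 0.934, beside 8.78% and 31.1% of all genes. In S3 over S1, 7 passed upwards and 9 downwards per non-globin UMI, beside 15.5% and 49.8%, with a median of 0.839, whereas in CPM 1 and 16 did, beside 6.76% and 76.1%, with a median of 0.510. At the last step 0 and 4 did per non-globin UMI, beside 10.5% and 22.6%, with a median of 0.953. In CPM 0 and 19 did, beside 1.15% and 72.4%, with a median of 0.540. The values that follow are for S3 over S1 per non-globin UMI unless CPM is named. Pomp, the maturation factor of the core, was at 0.585 (0.527 to 0.648), and the assembly chaperones Psmg1, Psmg2, Psmg3 and Psmg4 lay between 0.342 and 0.494, all past the fold. Usp14, a deubiquitinase of the 19S particle, was at 2.25 (2.0 to 2.54), from 128 to 289 non-globin CPM, and Zfand5, a proteasome-binding zinc finger protein, at 2.90 (2.51 to 3.35). In CPM they were at 1.26 and 1.496, both short of the fold. Of the subunits missed by the name pattern, Adrm1, a ubiquitin receptor, was at 0.600 (0.505 to 0.710), and Shfm1, the smallest lid subunit, at 0.995 (0.923 to 1.07).

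Nfe2l1, whose factor drives proteasome genes when the proteasome is impaired, stood at 19.6 non-globin CPM in S0-low, 10.5 in S1 and 19.5 in S3, with ratios of 0.536 (0.364 to 0.771) and 1.86 (1.09 to 3.13), both past the fold. Nfe2l2 was at 1.23 (1.06 to 1.43) and 0.781 (0.627 to 0.967), short of the fold at both steps. In CPM the ratios for S3 over S1 were 0.985 for Nfe2l1, short of the fold, and 0.510 for Nfe2l2, past it downwards.

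For comparison with other large complexes, the 7 CCT chaperonin genes had a median ratio of 0.616 per non-globin UMI in S3 over S1, with 5 past the fold downwards, and the 82 ribosomal protein genes compared had a median of 0.576, with 67 past it. Over all genes 49.8% passed it downwards. The median of the proteasome members at this step, 0.915, lay above both. In CPM the 3 medians were 0.385, 0.379 and 0.577. In S4/S5 over S3 per non-globin UMI that of the members, 0.813, lay below that of the CCT genes, 0.956, and slightly above that of the ribosomal protein genes, 0.793. Of the ubiquitin genes known from late erythroblasts 14 could be compared in S3 over S1, with a median of 4.60 and 13 past the fold upwards per non-globin UMI, and a median of 2.66 and 11 in CPM. Over all genes 15.5% and 6.76% passed it upwards. This list was chosen for late erythroblasts with earlier results of these data known, so its higher level in S3 is no independent finding. Among its genes Ube2o, a ubiquitin-conjugating enzyme of reticulocytes, was at 15.5 (11 to 22.4) and Ubb, a ubiquitin gene, at 3.99 (3.84 to 4.15), from 1078 to 4299 non-globin CPM. The differences between the lists were not tested, as there was 1 library.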

How the data were processed

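The deposited gene matrix holds raw UMI counts for each gene and cell, which the authors made with Cell Ranger on mm10 without normalization. The deposited antibody counts were made with CITE-seq-Count, and both libraries share all 7863 cell barcodes. How reads of overlapping or antisense genes were counted is not given in the sources used here.

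Kept cells had 300 to 5000 genes and no more than 9% mitochondrial UMIs. Scrublet in scanpy 1.11.5 called 128 doublets (1.63% of cells, expected rate 6%), which were removed. Stages were cut by k-means (scikit-learn 1.9.0) on antibody counts after a centered log ratio taken over cells, at 24.5 and 88.5 counts of Ter119 and at 233.5, 765 and, for Ter119-high cells, 746 counts of CD71. These cuts stand in for gates whose positions are not given in the sources used here.

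A level is the mean over cells of a gene's UMIs per 1000000 UMIs or per 1000000 non-globin UMIs. With 1 library no test was run, and intervals (scipy 1.17.1, numpy 2.4.6, Python 3.11.15) cover counting error only. Values were given for each catalytic, immunoproteasome, activator and PI31 gene and for the 5 highest and 5 lowest members by ratio in each comparison and unit. Other members were given by range, and some were named after their values were seen. The members, roles, gene lists and motifs were chosen with earlier results of these data known. The calculation of levels and ratios was run on simulated data in CPM only. These data held counting error alone, as the intervals assume, so they cannot show whether the intervals hold for real cells. Other antibody scales, classes, cell filters, denominators, minimum counts and folds were tried. The removal of marked cells by a fixed limit and of cells rich in embryonic globin was chosen after seeing the data. Figures were drawn with matplotlib 3.10.9.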

Additional observations from a re-analysis of the deposited data

How the results depend on the processing

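No paired analysis was possible because there is 1 library of each kind, with no replicate to leave out. The depth limits the later stages most, since S4/S5 cells had a median of 1243 non-globin UMIs. Over the alternatives run, no ratio of the summed level changed its direction, 50 moved by less than their counting interval and 46 by more. Of the ratios of single members 1749 moved by less and 429 by more, and 8 that had passed the fold reversed. A change of direction in a ratio short of the fold was not counted apart. The causes were not tested. All values below are ratios in the order S1 over S0-low, S3 over S1 and S4/S5 over S3, in CPM and then per non-globin UMI.

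With antibody counts on a log10 scale the summed level was at 0.623 and 0.941 for S3 over S1 and 0.430 and 0.812 for S4/S5 over S3. With antibodies scaled within each cell the summed level was at 1.08 for S1 over S0-low in CPM and 0.494 for S3 over S1 in CPM. With a Gaussian mixture for the classes the summed level was at 1.07 for S1 over S0-low in CPM, 0.543 and 0.889 for S3 over S1 and 0.502 for S4/S5 over S3 in CPM. Without cells near a border the summed level was at 0.520 for S3 over S1 in CPM. With doublets kept the summed level was at 0.545 for S3 over S1 in CPM. With at most 5% mitochondrial UMIs the summed level was at 1.09 and 1.14 for S1 over S0-low, 0.432 and 0.760 for S3 over S1 and 0.550 for S4/S5 over S3 in CPM. With no quality limits the summed level was at 1.06 and 1.09 for S1 over S0-low. With no lineage filter the summed level was at 1.07 and 1.10 for S1 over S0-low, 0.559 for S3 over S1 in CPM and 0.557 for S4/S5 over S3 in CPM. Without marker-rich cells by k-means the summed level was at 1.06 for S1 over S0-low per non-globin UMI. With counts pooled over the cells of a stage the summed level was at 1.06 for S1 over S0-low per non-globin UMI, 0.573 and 0.893 for S3 over S1 and 0.493 for S4/S5 over S3 in CPM. In UMIs per cell the summed level was at 1.39 for S1 over S0-low in both units, 0.302 for S3 over S1 in both units and 0.394 for S4/S5 over S3 in both units. With globin, ribosomal and mitochondrial genes out of the denominator the summed level was at 1.11 for S1 over S0-low in both units, 0.778 for S3 over S1 in both units and 0.817 for S4/S5 over S3 in both units. With 20S and 19S genes only the summed level was at 1.07 and 1.11 for S1 over S0-low, 0.521 and 0.844 for S3 over S1 and 0.489 and 0.821 for S4/S5 over S3.

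Among single members, Psmb10 in S1 over S0-low was at 1.21 in both units with antibody counts on a log10 scale. Psmb10 in S4/S5 over S3 in CPM, just past the fold at 1.51, was short of it with antibody counts on a log10 scale (1.30) and with counts pooled over the cells of a stage (1.14), among others. In UMIs per cell Psmb10 in S4/S5 over S3 was at 0.914 in both units, Psme3 in S3 over S1 at 0.647 and Psmc5 in S3 over S1 at 0.504. With globin, ribosomal and mitochondrial genes out of the denominator Psmd4 and Psmd3 in S4/S5 over S3 were at 1.03 and 1.07, where they had been below 1 in CPM. Of the counts of members past the fold 174 stayed within 1.5 times the main count and 54 did not. No share over all genes was taken under these other settings, so the counts below cannot be set beside one. In UMIs per cell the unlike depth of the stages enters every count. For S1 over S0-low 5 members were higher, with 0 at a fold of 2 and 18 in UMIs per cell, and 6 lower, with 3 at the lowest. For S3 over S1 15 were lower per non-globin UMI, with 4 at a fold of 2 and 43 in UMIs per cell, and 2 higher, with 0 to 5. In CPM at this step 30 were lower, with 16 when globin, ribosomal and mitochondrial genes were out of the denominator. For S4/S5 over S3 39 were lower in CPM, with 9 under that denominator, and 7 per non-globin UMI, with 1 at a fold of 2 and 40 in UMIs per cell.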
